A study of Mus musculus with 20 samples.

Results

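Tea drinking was compared with water drinking in white adipose tissue of 20 mice, across both of the diets they were fed. The drink term of a model with diet and drink was estimated from RNA sequencing of 10 tea mice and 10 water mice, which are all the libraries of the study. The 4 groups held 5 mice each: chow with water, chow with tea, a high-fat diet with water and a high-fat diet with tea. Tibetan tea, a fermented dark tea, was given as a water extract, and all groups were kept for 10 weeks with free access to food and drink in a cycle of light and dark. The labels used here do not state strain, sex, age, fat depot, tea intake or the time of day at which tissue was taken. By the design text each library comes from its own mouse, so the error in every test holds animal, dissection and library differences together.

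White adipose tissue stores triglyceride in adipocytes and releases fatty acids and hormones such as leptin. Adipocytes also break down branched-chain amino acids (leucine, isoleucine and valine), oxidise very long fatty acids in peroxisomes and, in obesity, become surrounded by macrophages. Tea carries caffeine, catechins and their fermentation products, which are cleared by conjugating and drug-metabolising enzymes.

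Levels are given as CPM (read counts scaled to a common library size), and changes as log2 fold changes of tea over water with their standard error (SE). CPM is not corrected for gene length, so levels are compared between mice and not between genes. Calls were made where the adjusted p of the edgeR quasi-likelihood test was below 0.05. In bulk tissue, fewer cells of a type and less RNA per cell cannot be told apart.

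The libraries held 53047057 to 93314761 reads in genes. Adipocyte genes were high in all 20, with Adipoq, the adipocyte hormone adiponectin, at 844 to 4157 CPM, and high-fat tea replicate 4 was the lowest library for all 6 defining adipocyte markers. Several libraries also held transcripts of other organs, given here as CPM of all reads in genes. Pancreas genes summed to 393173 CPM in chow water replicate 1, kidney genes to 28430 CPM in high-fat tea replicate 4, and genes of epididymis, testis and seminal vesicle to 38273 CPM with adrenal cortex genes at 15132 CPM in high-fat water replicate 4. Skeletal muscle genes reached 37446 CPM in high-fat tea replicate 1 and 33934 CPM in high-fat water replicate 5. Liver genes summed to 2237 CPM in chow water replicate 1 and 1852 CPM in high-fat tea replicate 4. In all, 9 libraries passed 1000 CPM for at least 1 such organ. The fits described as without 3 libraries leave out the pancreas, kidney and reproductive libraries just named and keep those with muscle, and the fits without 9 libraries leave out all of them. These libraries stand on both sides of the drink comparison, and results that move with them are given with and without them.

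Tea changed 475 of 21306 genes tested (2.23%) in the model of diet and drink, of which 285 were higher (1.34%) and 190 lower (0.892%) in tea mice. To describe genes that follow tea on both diets, a gene had to be called for drink, to have the same sign on chow and on the high-fat diet, and to have an unadjusted p below 0.05 within each diet. By this rule 366 genes followed tea (1.72% of genes tested), 221 of them higher (1.04%) and 145 lower (0.681%), which is 77.1% of the genes called. Of the rest of the called genes, 96 passed the unadjusted p on the high-fat diet only and 13 on chow only, and 474 of the 475 had the same sign on both diets. The rule used both diets, so the agreement of these 366 genes between diets is a property of how they were chosen. Their median absolute log2 fold change was 0.64 over both diets, 0.57 on chow and 0.70 on the high-fat diet. The change was larger on the high-fat diet in 253 of them and on chow in 113, and 255 changed by less than 1 on the log2 scale.

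**Figure D1:**
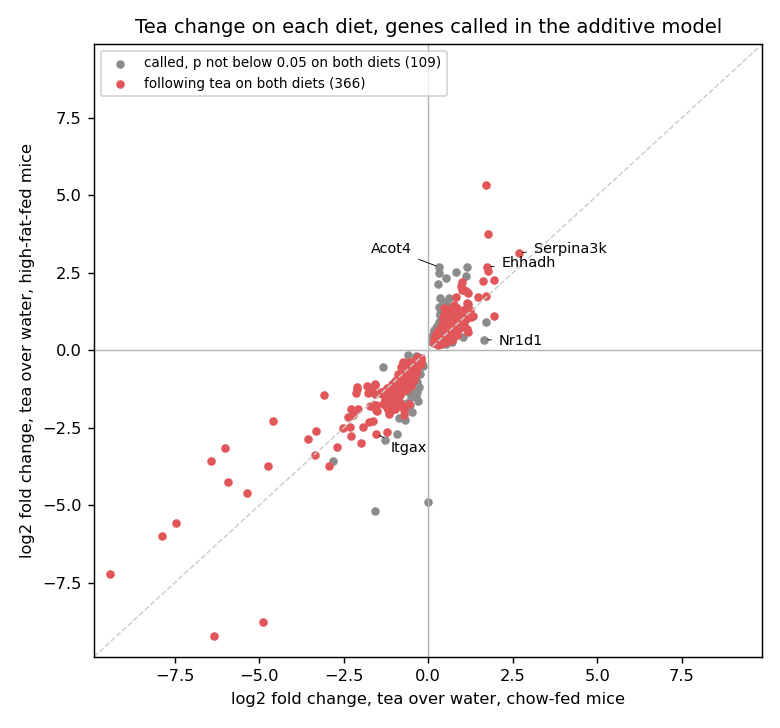
Each point is a gene called for drink, with its log2 fold change of tea over water in chow-fed mice on the x axis and in high-fat-fed mice on the y axis; red points are the 366 genes that follow tea on both diets and the dashed line marks equal change. Of the 475 points, 474 have the same sign on both axes, and the points far to the lower left are weakly expressed genes described in the text.

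Taken diet by diet, the same fits called 928 genes (4.36%) on the high-fat diet, 439 higher (2.06%) and 489 lower (2.30%), and 5 genes (0.0235%) on chow, 4 higher (0.0188%) and 1 lower (0.00469%). On chow, 990 genes were higher (4.65%) and 1644 lower (7.72%) at an unadjusted p below 0.05. The interaction of tea and diet was called in 14 genes (0.0657%), 7 in each direction (0.0329% each), and in none of the 366. An unadjusted interaction p below 0.05 was found in 14 of the 366, against 9.07% of all genes in the higher and 5.93% in the lower direction. The rule asks for a change on each diet in the same direction, so few interactions among the 366 follow from how they were chosen. Outside the 14 genes called for the interaction, a gene past the threshold on one diet only is not shown to differ between diets.

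Chow and high-fat mice are different animals, so the high-fat calls could be read in chow mice that share no controls with them, although the joint fit shares its estimate of the spread. Of the 439 genes that rose with tea on the high-fat diet, 339 (77.2%) were also higher in chow tea mice, against 45.6% of all genes tested. At an unadjusted p below 0.05, 94 of them (21.4%) were higher on chow, against 4.65% of all genes, and 9 were lower. Of the 489 genes that fell on the high-fat diet, 331 (67.7%) were lower on chow, against 54.3% of all genes, and 56 (11.5%) passed the unadjusted p in that direction, against 7.72%. In fits of each diet by itself, which share no samples, 6 of 9 called rises and 5 of 11 called falls kept their sign on chow, against 46.4% and 53.6% of all genes, and of the 100 lowest p in each direction 81 rises and 71 falls did. Without chow water replicate 1, the library with pancreas transcripts, 67.1% of the rises (546 of 814) and 72.9% of the falls (556 of 763) kept their sign on chow, against 45.8% and 54.2% of all genes.

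The count of genes that follow tea moved strongly when single libraries were left out. Whichever single library was left out, all 366 kept their sign on both diets and an unadjusted p below 0.05 for drink. What moved was whether the adjusted p stayed below 0.05. The 366 were chosen from these same mice, so part of that agreement follows from the choice. Of the 366 genes, 89 remained called without chow tea replicate 1, 91 without high-fat water replicate 2, 90 without high-fat water replicate 3, 115 without high-fat tea replicate 3, 139 without chow tea replicate 5 and 169 without high-fat water replicate 1. The remaining 14 libraries left 202 to 360 called when each was omitted, with the highest count without high-fat tea replicate 4. Without the 3 libraries with pancreas, kidney or reproductive and adrenal transcripts, 363 of the genes could be tested and 311 remained called. Without all 9 libraries with other-organ transcripts, which left 11 mice, edgeR called 0 genes for drink and 2512 had an unadjusted p below 0.05, 338 of the 366 among them, while with all 20 libraries DESeq2 called 1895 genes and limma voom with quality weights 1200. For the genes that rose, chow tea replicate 1 was the highest of its group in 143 of 221 (64.7%, against 23.9% of all genes tested) and high-fat tea replicate 3 in 137 of 221 (62.0%, against 16.9%). For the genes that fell, chow water replicate 1 was the highest of its group in 85 of 145 (58.6%, against 33.3%) and high-fat water replicate 1 in 78 of 145 (53.8%, against 27.0%). Without chow water replicate 1, 131 of the 221 rises and 91 of the 145 falls still met the whole rule.

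The clearest separation between drinks was in genes whose tea and water mice did not overlap on either diet. Across all genes, 59 (0.277%) showed this in the same direction on both diets and 3 (0.0141%) in opposite directions. Taken singly, the chow groups did not overlap in 144 of the 366 genes that follow tea (2.56% of all genes) and the high-fat groups in 154 (5.55% of all genes). The 366 were chosen for a difference within each diet in these mice, so shares above those of all genes follow from the rule. On both diets the groups did not overlap in 49 of the 366, 31 higher and 18 lower, with absolute log2 fold changes from 0.22 to 3.03. In 4 genes, or 0.0188% of those tested, all 10 tea mice were above all 10 water mice, namely Rbl2, Fbxl9, Gstt2 and the predicted gene Gm43618. These genes, and the others named with them here, were chosen after their values were seen.

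Rbl2, which encodes p130, a retinoblastoma-family repressor of cell cycle genes in resting cells, lies on chromosome 8 from 91796685 to 91850472 on the plus strand of GRCm39. Its level was 48.6, 52.1, 54.5, 53.2 and 54.4 CPM in chow water mice and 88.1, 63.1, 71.1, 72.6 and 61.4 CPM in chow tea mice. On the high-fat diet it was 46.8, 50.1, 49.6, 51.4 and 49.7 CPM with water and 60.0, 70.8, 73.1, 69.6 and 57.8 CPM with tea. Water mice of both diets thus sat in a narrow band below every tea mouse. Its change with tea was a log2 fold change of 0.43 (SE 0.06, adjusted p = 0.00951), with 0.44 on chow and 0.42 on the high-fat diet, and the call was kept in all 20 fits that each left out 1 library. Exons of genes on the opposite strand overlap 21% of its exonic bases, and the counting did not separate strands.

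Fbxl9, an F-box protein gene with leucine-rich repeats on chromosome 8 (106038897 to 106052910, minus strand), had the lowest adjusted p of the genes that follow tea. It was at 2.44, 2.87, 3.32, 3.22 and 3.16 CPM in chow water mice and at 6.65, 5.34, 7.06, 6.60 and 5.61 CPM in chow tea mice. The high-fat mice had 2.75, 2.94, 2.82, 2.89 and 3.40 CPM with water and 4.72, 6.22, 4.35, 7.29 and 3.62 CPM with tea. The gap was wide on chow and narrow on the high-fat diet, where tea replicate 5 came close to water replicate 5. Over both diets the log2 fold change was 0.94 (SE 0.12, adjusted p = 0.0081), and Fbxl9 was also called within each diet.

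Gstt2, a theta-class glutathione S-transferase of detoxification on chromosome 10 (75666948 to 75673258, minus strand), was at 75.9, 75.1, 82.5, 57.0 and 67.1 CPM in chow water mice and 103, 94.6, 104, 93.8 and 95.1 CPM in chow tea mice. High-fat mice were at 61.1, 58.2, 58.3, 51.5 and 55.4 CPM with water and 91.8, 110, 166, 263 and 102 CPM with tea. The change was small and even on chow and larger and uneven on the high-fat diet, where the kidney-containing library had the highest value. Tea over water gave a log2 fold change of 0.91 (SE 0.18, adjusted p = 0.0225), and 0.74 without that library. The call was lost without high-fat water replicate 2 or 3.

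Kyat3 and Cat rose without overlap within either diet. Kyat3 (kynurenine aminotransferase 3, which turns kynurenine into kynurenic acid) ran from 20.5 to 37.7 CPM in chow water and 42.1 to 74.7 CPM in chow tea mice, and from 8.12 to 15.9 CPM and 18.2 to 55.8 CPM on the high-fat diet. The gene's log2 fold change was 1.10 (SE 0.20, adjusted p = 0.0184), called in all 20 fits without 1 library. Cat, the peroxisomal enzyme catalase that splits hydrogen peroxide, ran from 827 to 2380 CPM and 2456 to 3445 CPM on chow, and from 586 to 970 CPM and 1110 to 3140 CPM on the high-fat diet. It rose by a log2 fold change of 0.87 (SE 0.21, adjusted p = 0.0384) and kept its call in 8 of the 20 fits. The gap on chow was thus narrow for Cat and wider for Kyat3. Cbx7, a Polycomb chromatin reader, rose by a log2 fold change of 0.48 (adjusted p = 0.0115, 20 of 20 fits), and Ddb2, a DNA damage-binding repair factor, by 0.46 (adjusted p = 0.0294, 15 of 20 fits), with 23.8% of the Ddb2 exonic bases shared with a neighbouring gene.

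Among the genes that fell without overlap were Ptger3, Cd44 and Leo1, each called in all 20 fits that left out 1 library. Ptger3, the EP3 receptor through which prostaglandin E2 restrains lipolysis in adipocytes, was at 62.3, 37.2, 36.0, 46.8 and 62.3 CPM in chow water mice and 22.6, 32.7, 28.9, 28.3 and 22.2 CPM in chow tea mice. High-fat mice had 91.7, 104, 69.9, 65.4 and 86.5 CPM with water and 39.5, 41.7, 31.4, 22.2 and 45.8 CPM with tea. High-fat water mice were highest, and high-fat tea mice were near the level of the chow mice. The fitted log2 fold change was -1.03 (SE 0.15, adjusted p = 0.00951).

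Cd44, a hyaluronan receptor of leukocytes and activated stromal cells, was at 26.9, 19.3, 22.9, 24.1 and 19.4 CPM in chow water and 10.6, 15.6, 11.3, 11.9 and 9.72 CPM in chow tea mice. High-fat mice were at 96.7, 55.1, 55.5, 36.9 and 40.0 CPM with water and 23.7, 18.0, 11.7, 12.3 and 30.3 CPM with tea. It fell by 1.25 on the log2 scale (SE 0.20, adjusted p = 0.0133), and without chow water replicate 1 the log2 fold change was -1.23. Leo1, a subunit of the PAF1 complex that travels with RNA polymerase II, ran from 18.8 to 21.1 CPM in chow water and 13.1 to 16.9 CPM in chow tea mice, and from 14.7 to 18.3 CPM and 6.23 to 11.5 CPM on the high-fat diet. Over both diets its log2 fold change was -0.69 (SE 0.11, adjusted p = 0.0133). Both genes therefore separated by drink with a small SE.

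**Figure D2:**
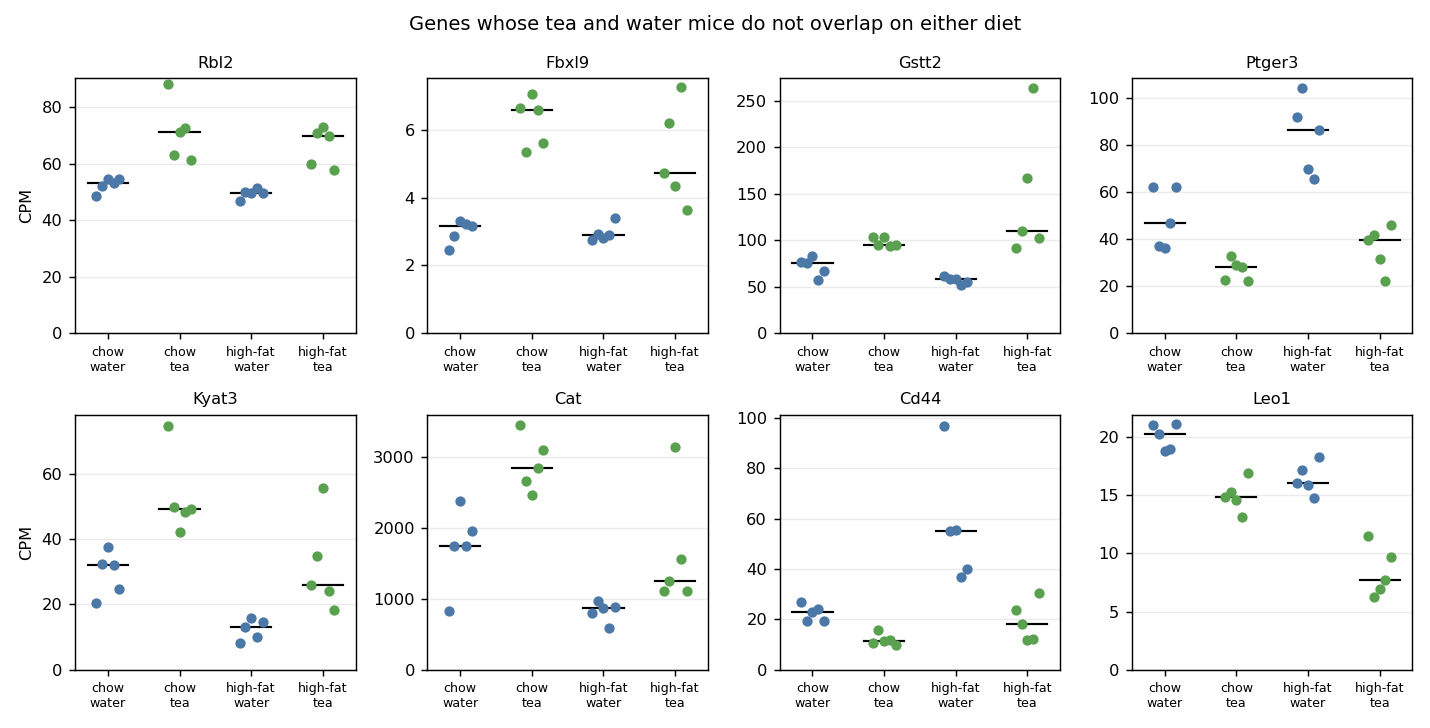
CPM of 8 genes on linear axes from 0, 1 point per mouse in 4 groups (blue water, green tea) with a bar at the group median. Within each diet the tea and water points of all 8 genes do not overlap, and for Rbl2, Fbxl9 and Gstt2 they do not overlap across diets either.

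Ranked by the smaller of the changes on the 2 diets, the strongest riser was Serpina3k, a serine protease inhibitor best known from liver, on chromosome 12 (104304745 to 104312403, plus strand). Its level was 6.32, 6.19, 23.0, 10.9 and 17.6 CPM in chow water mice and 163, 19.1, 20.6, 39.9 and 171 CPM in chow tea mice. High-fat water mice had 3.82, 1.99, 2.30, 14.3 and 9.50 CPM and high-fat tea mice 6.48, 31.0, 30.0, 204 and 11.8 CPM. A few tea mice carried the change and the groups overlapped on both diets. The log2 fold change was 2.92 (SE 0.64, adjusted p = 0.0291), a 7.57-fold rise, and 2.20 without the kidney-containing high-fat tea replicate 4, where it was highest. The call was kept in 15 of 20 fits and lost without chow tea replicate 1 or 5 or high-fat water replicate 1, 2 or 3.

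Ehhadh, the bifunctional enzyme of peroxisomal fatty acid oxidation, lies on chromosome 16 (21580037 to 21606557, minus strand). It was at 230, 492, 205, 330 and 263 CPM in chow water mice and 1934, 453, 950, 705 and 1014 CPM in chow tea mice. High-fat mice were at 52.2, 92.9, 75.7, 63.9 and 88.9 CPM with water and 137, 105, 414, 1658 and 93.8 CPM with tea. The groups did not overlap on the high-fat diet and overlapped on chow through 1 mouse of each. Ehhadh rose by a log2 fold change of 2.21 (SE 0.47, adjusted p = 0.0263), a 4.63-fold rise. The high-fat value of 1658 CPM came from the kidney-containing library, and kidney is a tissue rich in this enzyme. The same library held 1852 CPM of liver genes, against 44.2 to 254 CPM in the other high-fat tea mice. Without that library the log2 fold change was 1.54 over both diets, 1.33 on the high-fat diet, where it was 2.69 with it, and 1.73 on chow.

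Cirbp, the cold-inducible RNA-binding protein, on chromosome 10 (80001819 to 80008620, plus strand), was at 41.5, 46.4, 53.1, 41.5 and 72.1 CPM in chow water and 127, 85.9, 121, 94.5 and 128 CPM in chow tea mice. High-fat mice had 45.5, 26, 26, 50.9 and 29.9 CPM with water and 49.8, 85.7, 106, 74.4 and 43.1 CPM with tea. Chow groups did not overlap, while 2 high-fat tea mice fell within the range of the water mice. The log2 fold change was 1.07 (SE 0.18, adjusted p = 0.0133), 1.13 on chow and 1.01 on the high-fat diet, and the call was kept in all 20 fits without 1 library.

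The other risers named by the same ranking had log2 fold changes from 0.96 to 1.74. Slc43a1, a transporter of large neutral amino acids, rose by 1.52 (8 of 20 fits), Flvcr2, a choline and haem transporter, by 1.33 (12 of 20) and Npc1, the lysosomal cholesterol exporter, by 1.01 (16 of 20). Fbxo31, an F-box ubiquitin ligase subunit, rose by 1.49 (15 of 20), Rnf125, an E3 ubiquitin ligase, by 1.34 (18 of 20), and Mapkbp1, a JNK-binding scaffold, by 1.13 (17 of 20). Trp53inp1, a p53 target that acts in autophagy, rose by 0.96 (7 of 20), Cnst, a carrier of connexins to the cell surface, by 1.04 (14 of 20), and Gnal, a stimulatory G protein subunit, by 1.74 (6 of 20). In 8 of these 9 genes, all but Flvcr2, high-fat tea replicate 4 lay below the highest high-fat water mouse. Without it the log2 fold change was 1.62 for Slc43a1, 1.59 for Fbxo31, 1.24 for Mapkbp1, 1.45 for Rnf125, 1.11 for Npc1, 1.87 for Gnal, 1.14 for Cnst and 1.03 for Trp53inp1, each larger than with it. Its low adipocyte markers moved the same way, and their part in these values was not tested.

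Among the genes that fell, Ret, the receptor tyrosine kinase for GDNF-family ligands on neurons and some leukocytes, lies on chromosome 6 (118128706 to 118174679, minus strand). It was at 9.06, 15, 8.93, 18.9 and 11.9 CPM in chow water mice and 4.38, 6.83, 5.39, 5.08 and 4.97 CPM in chow tea mice. High-fat mice were at 45.2, 33.6, 25.9, 17.3 and 26.3 CPM with water and 15, 8.95, 6.15, 3.57 and 19.7 CPM with tea. Tea mice were below all water mice on chow and overlapped them through 1 mouse on the high-fat diet. It fell by 1.37 on the log2 scale (SE 0.26, adjusted p = 0.0184), by 1.26 on chow and 1.48 on the high-fat diet, and was called in all 20 fits without 1 library. Without chow water replicate 1 the chow log2 fold change was -1.38.

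Bmp3, a BMP-family antagonist, and Nnat, a small membrane proteolipid of the endoplasmic reticulum, also kept their chow change without that library. Bmp3 ran from 3.42 to 39.4 CPM in chow water and 5.08 to 9.06 CPM in chow tea mice, and from 45.6 to 136 CPM and 6.36 to 34.5 CPM on the high-fat diet. With tea its log2 fold change was -1.72 (SE 0.35, adjusted p = 0.024), and on chow -1.50, or -1.06 without chow water replicate 1. Nnat ran from 80.2 to 753 CPM and 57.4 to 193 CPM on chow, and from 563 to 1042 CPM and 92.2 to 474 CPM on the high-fat diet. Its log2 fold change was -1.54 (SE 0.38, adjusted p = 0.041), called in 8 of 20 fits, against 19 of 20 for Bmp3, which was lost without chow tea replicate 1. The high-fat groups of both genes did not overlap, and their chow groups did.

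For 7 further genes that fell, the chow groups overlapped without chow water replicate 1 and the chow difference then missed an unadjusted p of 0.05. Gamt, which makes creatine from guanidinoacetate, was at 44.2, 4.53, 4.82, 6.43 and 6.93 CPM in chow water mice and 2.84, 4.15, 3.77, 3.82 and 5.66 CPM in chow tea mice. The high-fat mice had 28.8, 18.8, 11.8, 32.3 and 16.9 CPM with water and 6.69, 4.92, 4.42, 9.35 and 6.05 CPM with tea. The first chow water mouse, whose library held the pancreas transcripts, was far above the other 4, and the high-fat groups did not overlap. Gamt fell by 1.76 on the log2 scale (SE 0.37, adjusted p = 0.0258). Without chow water replicate 1 its log2 fold change was -1.18 over both diets, -0.51 on chow (unadjusted p = 0.089) and -1.76 on the high-fat diet.

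The same held for enzymes of amino acid and monoamine breakdown. Gpt, the cytosolic alanine aminotransferase, was at 166 CPM in chow water replicate 1 and at 22.5 to 54.0 CPM in the other 4 chow water mice, against 19.8 to 34.2 CPM in chow tea mice. On the high-fat diet it was at 121, 148, 111, 83.8 and 137 CPM with water and 27.8, 35.5, 16.6, 32.4 and 39.6 CPM with tea, with no overlap. It fell by 1.57 on the log2 scale (SE 0.30, adjusted p = 0.0207, 20 of 20 fits), and on chow the log2 fold change moved from -1.14 to -0.40 without that library. Maoa, monoamine oxidase A, which oxidises serotonin and noradrenaline, was at 280 CPM in chow water replicate 1 and 27.1 to 49.4 CPM in the other 4, against 23.0 to 30.9 CPM in chow tea mice. Its log2 fold change of -1.46 (SE 0.37, adjusted p = 0.0457) became -0.88 without that library, with -0.49 on chow and -1.21 on the high-fat diet. On the high-fat diet Maoa ran from 46.6 to 115 CPM with water and 19.6 to 53.5 CPM with tea, with a small overlap. The chow difference in both genes was thus largely that of 1 mouse.

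Kcnn4, a calcium-activated potassium channel of leukocytes, Itgax, the CD11c integrin of macrophages and dendritic cells, and Ube2c, a ubiquitin-conjugating enzyme of mitosis, kept their call in 8, 8 and 6 of 20 fits, and chow water replicate 1 was among the libraries without which it was lost. Without it their log2 fold changes went from -1.66 to -1.21, from -2.13 to -1.62 and from -1.69 to -0.97, with adjusted p of 0.0675, 0.0841 and 0.083. Over all alternatives the adjusted p ran from 0.00145 to 0.458 for Kcnn4, from 0.000539 to 0.512 for Itgax and from 0.0022 to 0.419 for Ube2c. On chow without that library the log2 fold changes were -0.60, -0.33 and -0.07. Gpr35, a receptor that binds kynurenic acid, fell by 1.39 on the log2 scale, and without that library its chow value was -0.51. Jpt2, a microtubule-associated protein, fell by 1.21 on the log2 scale. It was at 66.6 CPM in that library and at 13.3 to 19.5 CPM in the other 4 chow water mice, all above the 9.51 to 12.7 CPM of chow tea mice, and its chow log2 fold change without that library was -0.51 (unadjusted p = 0.0659). Opposite-strand exons overlap 22.8% of the Ube2c exonic bases.

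**Figure D3:**
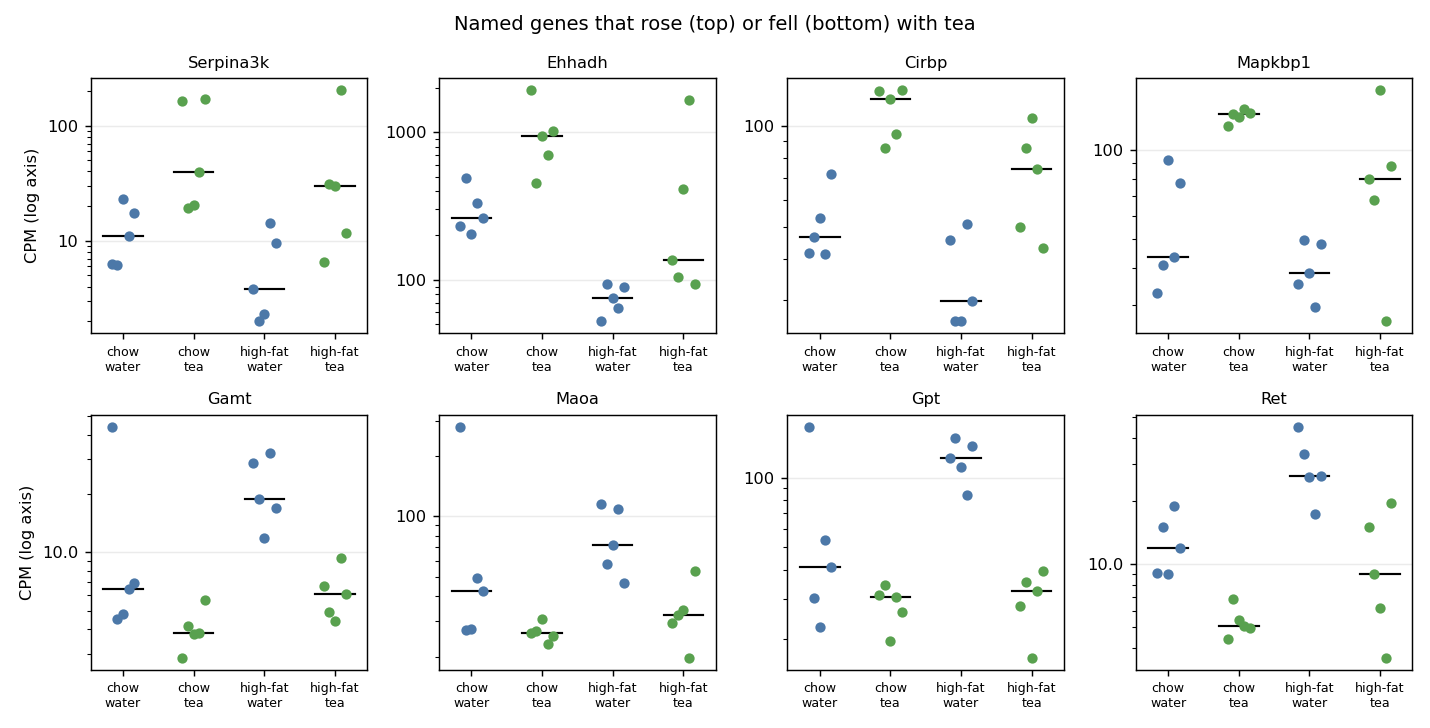
CPM on log axes of 4 genes that rose (top row) and 4 that fell (bottom row) with tea, 1 point per mouse in 4 groups (blue water, green tea) with a bar at the group median. The single high chow water points of Gamt, Maoa and Gpt, at 44.2, 280 and 166 CPM, are all replicate 1, while Ret shows no such point.

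The largest fitted changes were falls of weakly expressed genes. All 14 genes that follow tea with an absolute log2 fold change of at least 3 were lower in tea mice, all had a mean below 1 on the log2 CPM scale, and 11 had at least 1 library at 0, so their fitted folds are not sizes of effect. Among them, chosen after their values were seen, were Chga and Chgb (granins of secretory granules), Npy (neuropeptide Y of sympathetic nerves) and Pcsk1 (a prohormone convertase). Chga was at 56.4 CPM in chow water replicate 1, at 0.308 to 3.97 CPM in the other 4 chow water mice, at 1119 CPM in high-fat water replicate 4 and at 0.985 to 6.90 CPM in the other 4 high-fat water mice, against 0 to 1.12 CPM in chow tea and 0.161 to 1.09 CPM in high-fat tea mice. Npy was at 132 CPM in high-fat water replicate 4, 23.7 CPM in high-fat water replicate 3 and 19.4 CPM in chow water replicate 4, and at or below 2.03 CPM in all other libraries. Of the 14 genes, 10 were highest in high-fat water replicate 4, which held reproductive and adrenal transcripts. Without the pancreas, kidney and reproductive libraries, 11 of the 14 could be tested and 3 remained called (H2-M2, Actl6b and F730016J06Rik). High values of Chga, Chgb and Npy thus stood in a few water libraries, and whether these genes depend on tea or on what was dissected was not tested.

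The other genes of known pathways were read from gene lists. Over all genes tested, edgeR called 1.34% higher and 0.892% lower for drink. At an unadjusted p below 0.05, 8.98% were higher and 10.7% lower. Counts of list members are to be read beside these shares. Of the 366 genes that follow tea, 19 belonged to 21 lists and gene families described here and 347 to none of them.

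Breakdown of branched-chain amino acids was the list with the most members following tea. Of 19 genes tested, 4 rose (Bckdha, Dbt, Mccc2 and Hsd17b10), all 4 followed tea on both diets, and 12 were higher at an unadjusted p below 0.05 with none lower. The background was 1.34% called higher and 8.98% higher at an unadjusted p below 0.05 over all genes. At any size, 16 of the 19 were higher on both diets, against 26.3% of all genes. The median log2 fold change of the list was 0.33, 0.16 on chow and 0.50 on the high-fat diet, against -0.013 over all genes for drink. Without chow water replicate 1, 4 members were called, 2 of them following tea on both diets, and the chow median was 0.05.

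These enzymes act in mitochondria, in a shared step and then in separate branches. Bckdha and Dbt are the E1 alpha and E2 subunits of branched-chain ketoacid dehydrogenase, the committed step that all 3 amino acids share. Mccc2 is a subunit of methylcrotonyl-CoA carboxylase in leucine breakdown, and Hsd17b10 is the dehydrogenase of isoleucine breakdown and also a subunit of mitochondrial RNase P. The 250 bases before the start of 3 of them and of Ehhadh are printed here because each of these genes rose with tea. Whether they vary together between mice was not tested. The sequences are from RefSeq on GRCm38.p6, a different build from that of the counts.

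Bckdha, chr7:25658762-25659011, minus strand: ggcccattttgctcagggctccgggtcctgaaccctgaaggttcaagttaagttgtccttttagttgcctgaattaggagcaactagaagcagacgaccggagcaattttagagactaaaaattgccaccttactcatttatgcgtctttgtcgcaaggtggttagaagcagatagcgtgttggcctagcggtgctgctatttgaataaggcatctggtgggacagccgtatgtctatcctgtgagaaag
Mccc2, chr13:100015640-100015889, minus strand: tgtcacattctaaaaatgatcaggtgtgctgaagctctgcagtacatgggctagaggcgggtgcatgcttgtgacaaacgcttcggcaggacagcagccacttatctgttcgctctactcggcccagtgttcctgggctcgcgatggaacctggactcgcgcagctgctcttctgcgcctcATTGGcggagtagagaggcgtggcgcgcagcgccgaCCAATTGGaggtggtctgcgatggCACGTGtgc
Hsd17b10, chrX:152001646-152001895, plus strand: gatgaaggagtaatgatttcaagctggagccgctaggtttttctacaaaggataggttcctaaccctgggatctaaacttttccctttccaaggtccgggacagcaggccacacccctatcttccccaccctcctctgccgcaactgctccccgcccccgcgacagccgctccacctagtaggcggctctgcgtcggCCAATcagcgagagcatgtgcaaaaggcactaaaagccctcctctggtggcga
Ehhadh, chr16:21787835-21788084, minus strand: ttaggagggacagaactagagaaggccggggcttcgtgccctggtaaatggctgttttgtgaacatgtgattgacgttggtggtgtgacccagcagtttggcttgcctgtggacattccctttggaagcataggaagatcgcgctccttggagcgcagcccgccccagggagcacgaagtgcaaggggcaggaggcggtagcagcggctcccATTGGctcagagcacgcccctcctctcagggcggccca

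Each sequence reads 5′ to 3′ towards the gene, and capitals mark matches to CCAAT, the NF-Y box (ATTGG on the other strand), and to CACGTG, the E-box, both searched on either strand together with AGGTCA, the nuclear receptor half-site. Mccc2 held 3 CCAAT matches, 2 of which overlap each other, and 1 CACGTG match, Hsd17b10 and Ehhadh held 1 CCAAT match each, and Bckdha held none of the motifs. Over 32851 windows of the same length, 33.8% held CCAAT, 6.02% CACGTG and 14% AGGTCA. No combination of these motifs was shared by the 4 genes in these windows.

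In the mice, Dbt was at 87.7, 102, 111, 97.7 and 95.9 CPM in chow water and 147, 122, 127, 143 and 151 CPM in chow tea, and at 46.1, 68.9, 82.7, 63.9 and 65.2 CPM and 79.5, 105, 138, 105 and 77.0 CPM on the high-fat diet. It rose by a log2 fold change of 0.55 (SE 0.11, adjusted p = 0.0211), without overlap on chow, and was called in all 20 fits without 1 library. Mccc2 was at 61.9, 127, 131, 115 and 129 CPM in chow water and 175, 148, 171, 156 and 184 CPM in chow tea, and at 55.9, 77.1, 73.6, 64.2 and 75.5 CPM and 79.6, 105, 139, 89.4 and 73.9 CPM on the high-fat diet. The chow groups of both genes did not overlap and the high-fat groups did, through 1 or 2 mice. Mccc2 rose by 0.53 (SE 0.13, adjusted p = 0.041, 7 of 20 fits).

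Hsd17b10 ran from 134 to 233 CPM in chow water and 221 to 409 CPM in chow tea mice, and from 62.5 to 67.0 CPM and 79.4 to 289 CPM on the high-fat diet, where the groups did not overlap. Its log2 fold change was 0.95 (SE 0.20, adjusted p = 0.0258, 17 of 20 fits). Bckdha, at 62.6 to 124 CPM and 96.5 to 163 CPM on chow and 55.4 to 72.1 CPM and 80.5 to 144 CPM on the high-fat diet, rose by 0.57 (SE 0.13, adjusted p = 0.0325, 11 of 20 fits), and opposite-strand exons of B3gnt8 overlap 61.7% of its exonic bases. The summed level of the list is in the plot of list sums, where chow water replicate 1 was the lowest chow mouse.

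Some peroxisome assembly genes rose with tea, as did Cat and Ehhadh. Peroxins import enzymes into peroxisomes or build their membrane, and 3 of 17 tested rose, against 1.34% of all genes. Higher at an unadjusted p below 0.05 were 9, against 8.98% of all genes, and none were lower. Pex5, the import receptor, rose by a log2 fold change of 0.62 (SE 0.12, adjusted p = 0.0219, 20 of 20 fits), and Pex3, a membrane biogenesis factor, by 0.56 (SE 0.12, adjusted p = 0.0258, 18 of 20 fits). Pex3 was at 38.0 to 73.0 CPM in chow water and 83.4 to 92.2 CPM in chow tea mice, without overlap, and at 33.5 to 42.2 CPM and 41.6 to 81.1 CPM on the high-fat diet, where only the lowest tea mouse fell within the water range. The family median was 0.27, with 0.18 on chow and 0.28 on the high-fat diet. Catalase, Ehhadh and these peroxins were thus higher in tea mice of both diets.

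Few genes of fatty acid oxidation or oxidative phosphorylation passed the test. In the fatty acid oxidation list, 1 of 26 genes rose (Ehhadh). Higher at an unadjusted p below 0.05 were 6, against 8.98% of all genes, and none were lower. The list median was 0.28, with 0.04 on chow and 0.44 on the high-fat diet, and without the pancreas, kidney and reproductive libraries 2 were higher and 1 lower. Acaa1b, a peroxisomal thiolase, had log2 fold changes of 1.052 on chow and 0.73 on the high-fat diet, the latter -0.00 without high-fat tea replicate 4. Of 32 oxidative phosphorylation genes, 0 were called by edgeR, DESeq2 or voom, 1 was higher at an unadjusted p below 0.05, and the medians were -0.08 on chow and 0.45 on the high-fat diet.

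Proteasome genes shifted slightly upward. Of 38 subunits tested, 3 rose, against 1.34% of all genes, with a median of 0.12. At an unadjusted p below 0.05, 13 were higher and 1 lower, against 8.98% and 10.7% of all genes. Psma6, a core subunit, rose by a log2 fold change of 0.50 (SE 0.11, adjusted p = 0.0291), Psmc1, a regulatory ATPase, by 0.32 (SE 0.07, adjusted p = 0.0273) and Psmd9, an assembly chaperone, by 0.41 (SE 0.09, adjusted p = 0.0325), each in 13 of 20 fits. The peroxin, proteasome and histone families were picked after their members' values were seen.

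Cell cycle genes were lower as a list, and much of this came from 1 library. Of 22 genes tested, 1 fell (Ube2c), and 19 were lower at an unadjusted p below 0.05 with none higher, while DESeq2 called 13 lower and voom 4, against 0.892% called by edgeR and 10.7% at that p over all genes. At any size, 21 of the 22 were lower on both diets, against 28.7% of all genes. Kif11 and Tpx2, motors and organisers of the mitotic spindle, had log2 fold changes of -1.67 (adjusted p = 0.0542) and -1.36 (adjusted p = 0.0543). The median was -1.28, with -1.31 on chow and -1.17 on the high-fat diet. The summed level of the list was 415 CPM in chow water replicate 1 and 82.5 to 101 CPM in the other 4 chow water mice, against 80.9 to 104 CPM in chow tea mice. High-fat water mice had 147 to 279 CPM and high-fat tea mice 90.4 to 142 CPM, without overlap. Without chow water replicate 1, 0 members were called by edgeR, 12 were lower at an unadjusted p below 0.05, and the median was -0.65 over both diets, -0.09 on chow and -1.14 on the high-fat diet. The fall of cell cycle transcripts with tea was thus measured on the high-fat diet, and on chow it was the difference between 1 library and the rest.

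**Figure D4:**
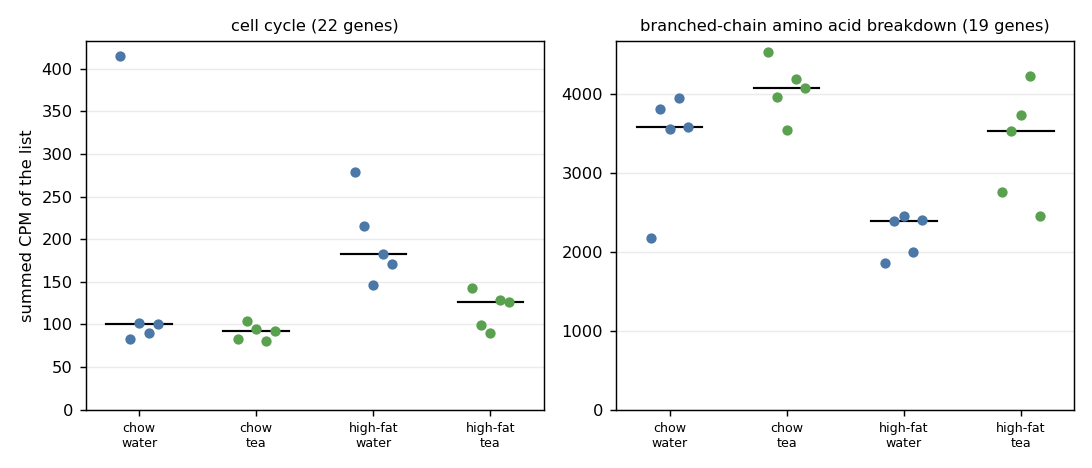
Summed CPM of the cell cycle list (left) and of the branched-chain amino acid list (right), 1 point per mouse in 4 groups (blue water, green tea) with a bar at the group median. Chow water replicate 1 stands alone at 415 CPM for the cell cycle list, and high-fat tea mice lie below high-fat water mice there.

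A few histone genes fell with tea. Of 32 linker and core histone genes tested, 3 fell, against 0.892% of all genes, at a median of -0.44. Lower at an unadjusted p below 0.05 were 8, against 10.7% of all genes, and none were higher. H1f4, a linker histone, was at 1.04, 2.51, 3.02, 2.56 and 3.80 CPM in chow water and 0.698, 1.57, 1.24, 1.42 and 1.01 CPM in chow tea mice. On the high-fat diet it was at 13.2, 9.70, 6.38, 5.88 and 8.89 CPM with water and 5.14, 2.23, 2.19, 1.39 and 4.58 CPM with tea, without overlap. It fell by 1.32 on the log2 scale (SE 0.27, adjusted p = 0.0232, 20 of 20 fits), and the log2 fold change was -1.42 without chow water replicate 1. H2bc6 fell by 1.054 (SE 0.22, adjusted p = 0.0258, 17 of 20 fits) and H3c15, which did not overlap on either diet, by 1.19 (SE 0.24, adjusted p = 0.0255, 18 of 20 fits), with -1.14 and -1.18 without chow water replicate 1. Most histone transcripts lack poly-A tails and the libraries were poly-A selected, copies of these genes are near-identical, and H1f4 shares 25.7% of its exonic bases with other genes on its strand, so these levels are less certain.

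Few chaperone genes passed the test. Of 18 genes of endoplasmic reticulum and integrated stress, Sdf2l1 and Pdia6 fell, with a list median of -0.27. At an unadjusted p below 0.05, 9 were lower and 2 higher, against 10.7% and 8.98% of all genes. Sdf2l1, an endoplasmic reticulum chaperone cofactor, was at 68.5, 11.2, 9.06, 6.09 and 6.67 CPM in chow water and 5.72, 5.91, 4.71, 3.16 and 4.14 CPM in chow tea mice. High-fat mice had 17.6, 16.6, 16.4, 16.6 and 12.2 CPM with water and 7.74, 6.25, 6.27, 5.96 and 8.93 CPM with tea. The groups did not overlap on either diet, and chow water replicate 1 was again far above the rest. The log2 fold change of -1.64 (SE 0.38, adjusted p = 0.0325) was -0.997 without that library, with -0.82 on chow and -1.15 on the high-fat diet, and its adjusted p was then 0.0093 (0.00574 to 0.283 over all alternatives).

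Pdia6, a protein disulphide isomerase, fell by 0.32 (SE 0.08, adjusted p = 0.0389, 9 of 20 fits), by 0.32 on chow and 0.31 on the high-fat diet. It was at 241 CPM in chow water replicate 1 and at 161 to 167 CPM in the other 4 chow water mice, so the chow change rests in part on that library. Without the pancreas, kidney and reproductive libraries the log2 fold change of Pdia6 over both diets was -0.24 (adjusted p = 0.0438). Hsp90b1, the HSP90 of the endoplasmic reticulum, had a log2 fold change of -0.30 (adjusted p = 0.0824). Of 15 heat shock genes, 0 were called by edgeR or voom and 5 were called lower by DESeq2. Lower at an unadjusted p below 0.05 were 8, against 10.7% of all genes, and none were higher. The heat shock median was -0.48, with -0.16 on chow and -0.71 on the high-fat diet. Hsph1, Hsp90aa1 and Cacybp, cytosolic chaperones and a cochaperone, had log2 fold changes of -1.09, -0.53 and -0.44 (adjusted p = 0.0926, 0.0854 and 0.0566). Among these chaperones, Sdf2l1 and Pdia6 were thus the members past the edgeR threshold.

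Few immune genes passed the test for drink. Of 20 genes of lipid-associated macrophages, the cells that gather around adipocytes in obesity, Itgax and Lgals3 fell. Lower at an unadjusted p below 0.05 were 4, against 10.7% of all genes. The list median was -0.38, with 0.11 on chow and -0.88 on the high-fat diet, and without chow water replicate 1 neither gene remained called by edgeR, while 9 were lower at an unadjusted p below 0.05. Lgals3, galectin-3, ran from 68.6 to 133 CPM in chow water and 37.7 to 76.0 CPM in chow tea mice, and from 248 to 930 CPM and 48.4 to 206 CPM on the high-fat diet. Its log2 fold change was -1.46 (SE 0.36, adjusted p = 0.0389), with -0.67 on chow (unadjusted p = 0.123) and -2.25 on the high-fat diet.

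General macrophage genes had a median of 0.08, and of 20 tested 0 were called by edgeR, DESeq2 or voom and 0 had an unadjusted p below 0.05. Of 11 class II antigen presentation genes, 0 were called by edgeR, and 6 were called lower by DESeq2 and 1 by voom. Lower at an unadjusted p below 0.05 were 9, against 10.7% of all genes. The class II median was -0.66, with -0.15 on chow and -0.996 on the high-fat diet. Ctss, a cathepsin of antigen processing, H2-Ab1 and H2-DMa had log2 fold changes of -0.999, -0.66 and -0.66 (adjusted p = 0.0898, 0.0676 and 0.0844). Of 19 lymphocyte genes, Trac, the T cell receptor alpha constant gene, fell by 1.24 (SE 0.28, adjusted p = 0.03), from 2.89 to 4.97 CPM in high-fat water to 0.623 to 1.61 CPM in high-fat tea mice. Trac did not meet the rule for following tea on both diets. In the lymphocyte list, 0 genes were called lower without the pancreas, kidney and reproductive libraries, with the replicate block or with no filter. DESeq2 and voom each called 1 lower. Gzma and Cd8a, of cytotoxic cells, had their highest level in chow water replicate 1, and the Gzma log2 fold change of -2.06 was -0.50 without it. Itgax, Lgals3 and Trac were thus the immune list members past the edgeR threshold for drink.

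Genes that clear or sense tea compounds moved unevenly. In the list of caffeine and catechin targets, 1 of 15 genes fell (Maoa), and 4 were lower and 1 higher at an unadjusted p below 0.05. Of 22 genes of the aryl hydrocarbon receptor and drug metabolism, Cyp2d22 and Fmo2 rose and 9 were higher at an unadjusted p below 0.05 with none lower. Over all genes, 8.98% were higher and 10.7% lower at that p.

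Cyp2d22, a cytochrome P450, ran from 99.7 to 214 CPM in chow water and 192 to 238 CPM in chow tea mice, and from 36.8 to 55.2 CPM and 54.0 to 132 CPM on the high-fat diet. It rose by a log2 fold change of 0.82 (SE 0.18, adjusted p = 0.0291), with 0.39 on chow (unadjusted p = 0.0893) and 1.24 on the high-fat diet. Fmo2, a flavin monooxygenase, rose by 0.88 (SE 0.23, adjusted p = 0.0492, 6 of 20 fits), with 413 CPM in the kidney-containing high-fat tea replicate 4 against 109 to 175 CPM in the other 4 high-fat tea mice, and by 0.65 without that library. The list median was 0.71, but -0.0035 on chow and 1.38 on the high-fat diet, and neither gene met the rule for following tea on both diets, although Fmo2 did so without that library.

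Among core clock genes, Nr1d1 rose with tea. Nr1d1, the REV-ERB alpha repressor of the circadian clock, was at 40.0, 54.3, 67.3, 33.9 and 49.5 CPM in chow water mice and 150, 137, 177, 117 and 190 CPM in chow tea mice. High-fat mice had 154, 178, 178, 147 and 200 CPM with water and 188, 284, 297, 147 and 174 CPM with tea. The chow groups were far apart and the high-fat groups overlapped. The log2 fold change was 1.00 (SE 0.21, adjusted p = 0.0259) over both diets, 1.65 on chow, where it was called, and 0.35 on the high-fat diet, but the difference between diets did not pass the test (-1.31, adjusted p = 0.107). Dbp, a clock output factor, was at 0.83 over both diets (adjusted p = 0.0785), with 1.70 on chow and -0.03 on the high-fat diet, an interaction that was called at -1.73. Arntl, the BMAL1 activator, had -0.76 (adjusted p = 0.0519), Tef, a relative of Dbp, 0.57 (adjusted p = 0.0575), Per1 0.20 and Npas2 0.35. Of 12 core clock genes 1 was called, and of 12 output genes 0 were called by edgeR or voom and 3 by DESeq2. At an unadjusted p below 0.05, 4 output genes were higher and 1 lower, against 8.98% and 10.7% of all genes. The labels do not state when in the day each mouse was killed, so an effect of that hour and one of tea cannot be told apart.

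Adipocyte identity genes had a median near 0 over both diets. Of 12 genes, 0 were called by edgeR and 1 each by DESeq2 and voom, 1 was higher at an unadjusted p below 0.05, and the median was 0.10. By diet the median was 0.30 on chow and -0.10 on the high-fat diet. Without the pancreas, kidney and reproductive libraries it was 0.10 on chow and 0.0026 on the high-fat diet. Adipoq had a log2 fold change of 0.0052 (SE 0.26), and Pparg, the master regulator of adipocytes, 0.14 (SE 0.23). Of 16 adipokine genes, 0 were called by edgeR, and DESeq2 and voom each called 1 higher and 4 lower. At an unadjusted p below 0.05, 1 was higher and 6 lower, against 8.98% and 10.7% of all genes. Without chow water replicate 1, 3 were called lower by edgeR.

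Lep, which encodes leptin and follows fat cell size, was at 5.38, 50.1, 33.4, 35.4 and 170 CPM in chow water mice and 1.52, 17.7, 9.09, 6.56 and 0.807 CPM in chow tea mice. On the high-fat diet it was at 3080, 1660, 951, 1062 and 1286 CPM with water and 165, 66.5, 5.06, 97.6 and 943 CPM with tea. The high-fat groups did not overlap and 1 low chow water mouse, replicate 1, lay within the chow tea range. The log2 fold change was -2.85 (SE 0.75, adjusted p = 0.0514), with -3.05 on chow and -2.65 on the high-fat diet, and the adjusted p was 0.0395 without chow water replicate 1 (0.000648 to 0.339 over all alternatives). Apln, the peptide hormone apelin, had -1.47 (adjusted p = 0.0517), and Cfd, adipsin, 1.23 (adjusted p = 0.0846). Body and fat pad weights were not analysed here.

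Lipogenic and matrix genes had no call for drink. Of 19 de novo lipogenesis genes, 0 were called by edgeR, with 1 higher and 3 lower at an unadjusted p below 0.05, DESeq2 called 1 higher and 1 lower, and voom 1 higher. Of 27 matrix genes, 0 were called by edgeR, 2 by DESeq2 and 1 by voom, all lower. Lower at an unadjusted p below 0.05 were 7, with none higher. For both lists, the shares of all genes at that p were 8.98% higher and 10.7% lower. The matrix median was -0.42, with -0.02 on chow and -0.74 on the high-fat diet. Col15a1, a basement membrane collagen, had a log2 fold change of -1.39 (adjusted p = 0.0553), with -0.40 on chow and -2.38 on the high-fat diet. Trem2, a lipid receptor of macrophages, had -0.65 (1.13 on chow and -2.41 on the high-fat diet), Fkbp5, a glucocorticoid target, 0.57, and Ucp1, the uncoupling protein of brown and beige fat, -0.50 (SE 1.15).

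**Figure D5:**
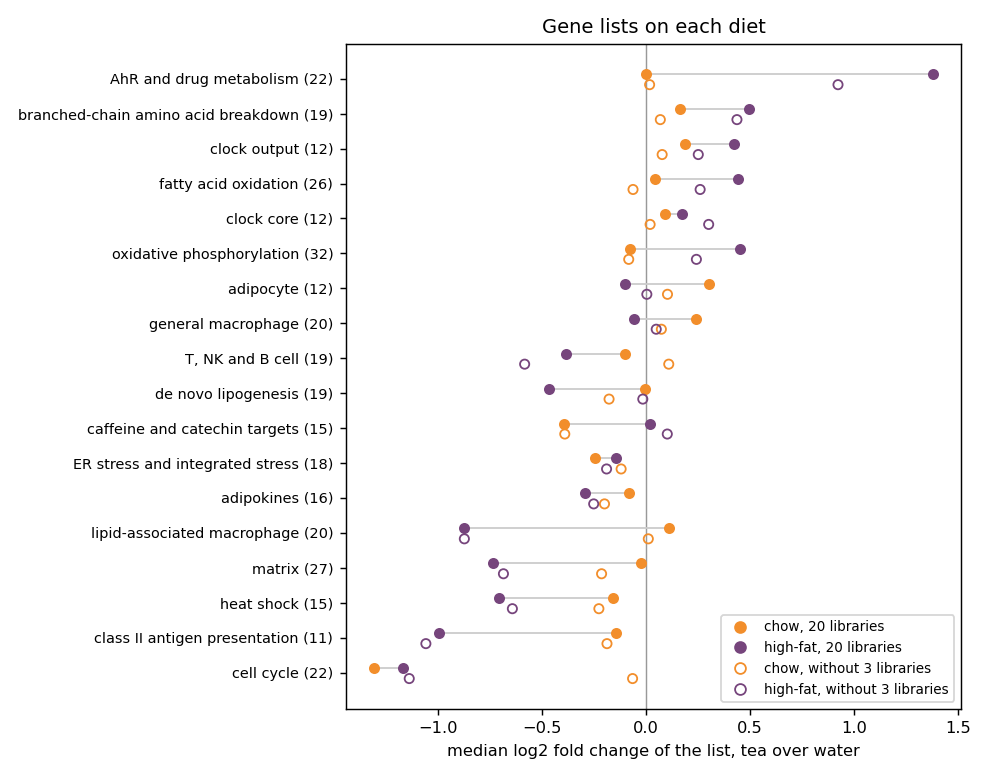
Median log2 fold change of tea over water for 18 gene lists (number of tested genes in brackets), on chow (orange) and on the high-fat diet (purple), with open circles for the fits without the pancreas, kidney and reproductive libraries. The cell cycle median on chow moves from -1.31 to -0.07 without these libraries, and the drug metabolism medians lie at -0.0035 on chow and 1.38 on the high-fat diet.

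In a few genes the average over both diets hid opposite or unequal changes. Acot4, a peroxisomal acyl-CoA thioesterase, was called for drink at a log2 fold change of 1.501 (SE 0.36, adjusted p = 0.0383, 9 of 20 fits). It was at 36.7 to 66.9 CPM in chow water and 53.8 to 82.2 CPM in chow tea mice, and at 4.23 to 6.32 CPM and 20.2 to 59.5 CPM on the high-fat diet, where the groups did not overlap. The change was 0.32 on chow and 2.69 on the high-fat diet, and the difference between diets was called (2.36, SE 0.40, adjusted p = 0.0291). Scd2, a stearoyl-CoA desaturase, had -0.46 over both diets but 1.01 on chow and -1.94 on the high-fat diet, with a called interaction of -2.95 (SE 0.35, adjusted p = 0.00238). These genes do not follow tea on both diets, although their average over diets can pass the test.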

How the data were processed

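RNA of white adipose tissue from 20 mice in 4 groups of 5 was extracted with TRIzol and sequenced from a stranded mRNA kit, per the labels' protocols. The authors trimmed reads with fastp 0.23.2 and aligned them with HISAT2 2.2.1, per the submitters' processing notes. The deposited counts are raw reads per gene from featureCounts 2.0.6 on GENCODE annotation of GRCm39, per the file headers, while the notes name mm10. Per the headers, paired reads were counted singly and without regard to strand, so mates of a pair are not independent and overlapping genes on opposite strands share reads. Of 101 genes named, 35 overlap exons of another gene, 5 of them over more than 20% of their exonic bases.

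The counts of 56805 genes were filtered in edgeR 4.0.16 (filterByExpr, minimum count 10 in 5 libraries and 15 in total), which left 21306. Libraries were scaled by TMM and fitted with diet and drink by the quasi-likelihood F-test, in R 4.3.3. A fit of the 4 group means gave each diet's tea contrast and the interaction. p-values were adjusted by Benjamini-Hochberg over all genes tested. Genes were named by a rule: the 12 genes in each direction that follow tea with the largest smaller within-diet change and a mean of at least 1 on the log2 CPM scale, up to 3 genes per list with the lowest p, a fixed set of 12 (Lep, Adipoq and others), and up to 4 genes that differ between diets. It gave 81 genes, and 20 more were chosen after their values were seen, beside the weakly expressed genes with the largest falls; a few of these genes are not reported here. The members, lists and rules were chosen with earlier results of these data known. The fit was tested on simulated data: for the tea main effect over 20890 genes it recovered 66 of 99 genes changed 2-fold and 93 of 100 changed 4-fold, with 5 false among 164 calls. The simulated counts were drawn for each gene independently around a fit of diet. They held no library with other-organ transcripts and no correlation between genes, so the false calls of the real data can be more frequent. Alternatives were RLE scaling, DESeq2 1.42.0, limma 3.58.1 (voom with quality weights), no filter, a replicate block, group means, each diet alone and each library left out. Further alternatives, chosen after seeing the data, left out 3 libraries with visceral-organ transcripts or all 9 libraries over an other-organ limit. That limit was 1000 CPM of pancreas, intestine, kidney, skeletal muscle, reproductive or adrenal genes. Blood genes were not part of it and reached 1938 CPM in chow tea replicate 5, which was kept.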

Additional observations from a re-analysis of the deposited data

Results flagged for a closer look

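Among 97 named genes, 41 of 388 groups of 5 mice (10.6%) had a mouse far from the other 4 by Dixon's test, where chance flags about 1 in 20. That rate holds for independent, normally spread values, which CPM of chosen genes need not be. Of the 41, 17 were chow water replicate 1. It was high, in CPM, for Cd8a (7.69), Gamt (44.2), Gpr35 (8.86), Gpt (166), Gzma (25.5), Itgax (18.5), Jpt2 (66.6), Kcnn4 (21.4), Kif11 (15.2), Lgals3 (133), Maoa (279.5), Pdia6 (241), Sdf2l1 (68.5), Tpx2 (8.14) and Ube2c (16.6), and low for Mccc2 (61.9) and Psmc1 (124). All 15 genes high in it had a negative log2 fold change of tea over water, and this library held 393173 CPM of pancreas genes. A high value in a water mouse itself lowers tea over water, and several of these genes were named because they fell. The shared sign therefore follows in part from that. The part of those transcripts in these values was not tested.

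High-fat tea replicate 4, with kidney genes, was high for Acaa1b (380.2 CPM), Ehhadh (1658 CPM), Fmo2 (413 CPM) and Serpina3k (204 CPM) and low for Pparg (59.9 CPM) and Srebf1 (87.9 CPM). High-fat tea replicate 5 was high for Itgax (23.2 CPM), Lep (943 CPM), Lgals3 (206 CPM) and Npr3 (763 CPM). High-fat water replicate 1 was high for Kcnn4 (35.2 CPM), Lgals3 (930.2 CPM) and Trem2 (101 CPM), and stood apart for Arntl (10.6 CPM) and Hsph1 (45.9 CPM). High-fat tea replicate 3 was high for Cat (3140 CPM) and Pex5 (197 CPM).

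Single values stood apart in the other libraries. They were Cidec at 1883 CPM in high-fat water replicate 4, Sdf2l1 at 12.2 CPM and Fbxl9 at 3.40 CPM in high-fat water replicate 5, Hsp90b1 at 221.5 CPM and Kyat3 at 74.7 CPM in chow tea replicate 1, Gnal at 51.0 CPM in chow water replicate 3 and Lep at 170.3 CPM in chow water replicate 5.

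The tea change differed between diets by the interaction test in 3 named genes. The difference of log2 fold changes, high-fat minus chow, was 2.36 for Acot4, -1.73 for Dbp and -2.95 for Scd2.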

How the results depend on the processing

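The counts of called genes depend strongly on the tool and on single libraries. For the tea main effect (475), genes following tea (366), tea on the high-fat diet (928), tea on chow (5) and the interaction (14), DESeq2 gave 1895, 718, 2444, 260 and 692, voom with quality weights 1200, 688, 2011, 14 and 84, and no filter 97, 93, 408, 2 and 4. Without the 3 libraries with pancreas, kidney or reproductive transcripts they were 892, 602, 1602, 9 and 44, and without all 9 with other-organ transcripts, muscle included, they were 0, 0, 13, 0 and 0, with 2512 genes at an unadjusted p below 0.05 for the main effect. The mean of both diets from group means called 807. The high-fat libraries alone gave 21 and the chow libraries alone 0, with 4170 and 2398 genes at an unadjusted p below 0.05. RLE scaling kept all 5 counts within 1.5 times. The cause was not tested, except that these subsets have fewer mice.

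Leaving out each library gave 93 (high-fat water replicate 3) to 813 (high-fat tea replicate 4) genes for the main effect, 85 (chow tea replicate 1) to 573 (high-fat tea replicate 4) following tea, 212 (high-fat water replicate 1) to 2017 (high-fat tea replicate 5) on the high-fat diet, 2 to 6 on chow and 3 to 111 (the latter without high-fat tea replicate 5) for the interaction. With the replicate block the counts were 224 for the main effect, 208 following tea and 2 on chow. Same-numbered mice of different groups had a median correlation of 0.013 over 30 pairs, against -0.026 over 120 pairs with other numbers. Of 20 mice, 4 correlated best with their own number. These values gave no sign that the numbers pair the mice. Libraries with other-organ transcripts enter the correlations, so they cannot show whether a number marks a shared cage or batch.

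Some log2 fold changes turned sign: Npas2 was -0.019 with voom and -0.090 without 9 libraries, Ucp1 0.51 with voom, Cd8a 0.029 without 9, and Adipoq -0.048 without 3, -0.17 without 9 and -0.106 to 0.124 when single libraries were left out.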
